A study of Sus scrofa with 33 samples.

Results

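The genes described here encode chaperones and folding enzymes of the endoplasmic reticulum (ER) together with transcription factors and effectors of the unfolded protein response, measured in pig pituitary tissue. They were HSPA5, HSP90B1, CALR, CANX, PDIA3, PDIA4, DDIT3, ATF4, XBP1 and HERPUD1. A probe, which is a DNA oligonucleotide of 60 bases on the array, was taken as theirs when its gene name in the scanner files, or the symbol in its description, was one of these names in any case. By that rule 42 probes were found, of which 41 were among the 45667 probes of the normalized table, and 9 of the 10 genes had at least 1 probe. No probe carried the name PDIA4. HERPUD1 was left with 1 probe, because its other probe (O8864) was not in the normalized table and was well above background on only 14 of the 33 arrays. The 9 genes were among 10185 genes named in that table. All 41 probes were well above background on all 33 arrays.

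The study asked how growing pigs respond to a short heat exposure and sampled 3 genetic groups, Large White (LW), Creole (CR) and their F1 cross. All animals were castrated males, moved to a climatic room at 11 weeks of age and given free access to feed. Thermoneutral pigs (TN, 24 °C in the labels) were slaughtered before the room was warmed, and heat-stressed pigs (HS) some days after it, with 30 °C in their labels and 32 °C for 5 days in the text of the series. There were 5 LW TN, 6 LW HS, 5 CR TN, 6 CR HS, 6 F1 TN and 5 F1 HS arrays, each of 1 animal, so that 16 TN arrays stood against 17 HS arrays and each breed had 11 arrays. HS pigs were slaughtered later than TN pigs, so temperature cannot be told apart from slaughter day and from age at slaughter. Animals of a breed came from few litters and shared pens, and the labels tie no array to a litter or pen. One array, LW HS 3, is LW by its title and Creole by its breed field, and was used as LW. In bulk tissue, fewer cells of a type and less RNA per cell cannot be told apart.

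Proteins that enter the secretory route are folded in the ER. HSPA5 (BiP) binds unfolded chains and, in the resting cell, holds the stress sensors inactive. When unfolded chains accumulate, the sensors are released: IRE1 splices the mRNA of XBP1, PERK slows translation while allowing ATF4 and then DDIT3 (CHOP) to be made, and ATF6 is cut into a transcription factor that induces chaperone genes. Endocrine cells of the anterior pituitary secrete large amounts of peptide hormone and therefore carry a dense ER.

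Several probes read overlapping stretches of the same mRNA, and their sequences are given first because the XBP1 results below depend on where in the transcript a probe lies. All are written 5′ to 3′ as in the scanner files. In the pair below, capitals mark the 57 bases that the probes share. The first probe has its start given as base 791 of the XBP1 reference transcript. The second is named XBP1P1, after a copy of the gene. The name comes from the array design, where the accession listed for this probe is also that of an XBP1 probe (A_72_P287569), and signal from the gene and such a copy cannot be told apart by these 57 bases.
XBP1 A_72_P592109: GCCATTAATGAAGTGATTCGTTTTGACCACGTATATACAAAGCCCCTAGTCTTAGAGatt
XBP1P1 A_72_P420219: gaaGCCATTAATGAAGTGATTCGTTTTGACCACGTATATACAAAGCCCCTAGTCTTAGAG
The next pair lies just downstream, with the first probe at base 842, and capitals mark the 48 bases they share.
XBP1 A_72_P544772: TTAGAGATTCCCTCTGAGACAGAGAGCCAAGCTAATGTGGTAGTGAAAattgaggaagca
XBP1 O9563: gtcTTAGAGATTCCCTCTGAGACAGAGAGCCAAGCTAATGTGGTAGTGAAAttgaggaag
The pair after that starts at bases 1017 and 1041 and shares the 36 bases in capitals.
XBP1 A_72_P488529: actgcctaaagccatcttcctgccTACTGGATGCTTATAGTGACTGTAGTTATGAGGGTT
XBP1 A_72_P536555: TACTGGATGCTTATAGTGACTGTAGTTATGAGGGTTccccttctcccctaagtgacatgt
The other XBP1 probes with a stated start lie at bases 1584 (A_72_P550986) and 1692 (A_72_P094611). Which spliced form of XBP1 each probe reads was not tested.

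Overlap also limits how far probes of the other genes count as separate readings. The DDIT3 probes A_72_P440751 and O11871 have the same sequence, so they are repeated spots of 1 reading, and their values followed each other over the 33 arrays with r = 0.94 once group means were removed. The sequence they share starts at base 125 of the transcript.
DDIT3 A_72_P440751: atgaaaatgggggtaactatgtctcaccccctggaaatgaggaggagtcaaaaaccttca
For HSP90B1, 39 bases of CUST_304_PI427286967 are the reverse complement of 39 bases of O7995, in capitals below, so these 2 probes are directed at opposite strands. At most 1 of them reads the HSP90B1 mRNA, and both are counted among its 10 probes.
HSP90B1 CUST_304_PI427286967: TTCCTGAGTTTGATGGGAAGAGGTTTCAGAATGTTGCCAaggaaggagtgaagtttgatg
HSP90B1 O7995: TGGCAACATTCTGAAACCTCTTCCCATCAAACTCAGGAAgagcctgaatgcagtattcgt
Of the 3 HSPA5 probes, 2 overlap by 49 bases, and the only separate reading is the probe at base 1487.
HSPA5 A_72_P416982: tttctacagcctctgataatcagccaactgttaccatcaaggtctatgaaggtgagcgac

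After the days of heat, none of the 9 measured ER chaperone and unfolded protein response genes passed the test between HS and TN pigs. With limma across all probes, breed as a term and Benjamini-Hochberg adjustment, 0 of the 41 probes passed an adjusted p of 0.05, and 1 of them, the HERPUD1 probe, had an unadjusted p under 0.05. Over the whole table the same test called 10 of 45667 probes (0.0219%), and 3 of 10185 genes by their brightest probe (0.0295%), while 4005 probes had an unadjusted p under 0.05. That count of 10 ranged from 6 (without CR TN 1 or CR HS 3) to 37 (without F1 TN 3) when 1 array was left out, with 32 without LW HS 3. Of the 41 probes, 30 were higher and 11 lower in HS, with a median difference of 0.04 on the log2 scale, and over all probes 24959 were higher and 20708 lower, with a median of 0.01. The 95% intervals of the 41 differences pooled over breeds lay between 0.833-fold and 1.26-fold, so larger changes of that pooled mean were outside all of them. Within single breeds the intervals were wider, from 0.723-fold to 1.61-fold in LW, 0.743-fold to 1.63-fold in CR and 0.619-fold to 1.35-fold in F1. All these intervals take animals as independent, although animals shared litters and pens. Data of the same size were simulated with independent noise and 50 probes changed per size. There the test recovered 22% of probes changed by 0.2, 80% of those changed by 0.4 and 100% of those changed by 0.8 (log2). No slide, litter or pen effects were simulated. The test made 160 calls there against 10 here, so recovery can be lower in these arrays.

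Values below are log2 intensities of the probe with the highest mean of each gene, and levels of different probes are not compared. HSPA5, the ER member of the HSP70 family, ran from 15.06 over a median of 15.53 to 15.87 in the 16 TN pigs and from 15.33 over 15.58 to 15.95 in the 17 HS pigs. The ranges overlapped over most of their length, and the difference of 0.08 (95% interval -0.05 to 0.20) had an adjusted p of 0.75. Its other 2 probes gave 0.06 and 0.12. HSP90B1 (GRP94), the HSP90 of the ER, spanned 15.69 to 16.44 in TN pigs with a median of 16.11, and 15.76 to 16.37 in HS pigs with a median of 16.06. Its difference was -0.03 (-0.16 to 0.10), and its 10 probes lay between -0.03 and 0.06.

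CALR and CANX, the soluble and the membrane-bound lectin chaperone that retain glycoproteins until they are folded, gave differences as small. CALR had a TN range of 16.34 to 16.88 (median 16.61) and an HS range of 16.25 to 16.91 (median 16.54), a difference of -0.06 (-0.18 to 0.06). For CANX the range was 14.08 to 14.68 in TN (median 14.44) and 14.22 to 14.77 in HS (median 14.49), a difference of 0.06 (-0.05 to 0.18). PDIA3 (ERp57), the disulphide isomerase that works with both lectins, covered 12.95 to 13.63 in TN (median 13.44) and 13.10 to 13.90 in HS (median 13.34), and the mean difference was -0.01 (-0.15 to 0.14). In all 3 genes the ranges of HS and TN animals overlapped over most of their length.

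The transcription factors gave no larger values. DDIT3, which promotes cell death when stress is not relieved, lay between 11.43 and 12.14 in TN (median 11.97) and between 11.66 and 12.16 in HS (median 11.95), with a difference of 0.00 (-0.14 to 0.14). ATF4, which drives amino acid supply and DDIT3, lay between 14.49 and 14.84 in TN (median 14.64) and between 14.45 and 15.12 in HS (median 14.69), a difference of 0.05 (-0.06 to 0.16). Its 7 probes were all higher in HS, by 0.04 to 0.10, with adjusted p of 0.63 or more. XBP1, which induces genes of ER expansion once spliced, ranged from 15.26 to 15.69 in TN (median 15.41) and from 15.16 to 15.76 in HS (median 15.55), a difference of 0.07 (-0.04 to 0.18).

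HERPUD1, a membrane protein of ER-associated degradation that is strongly induced by ER stress, had the largest HS minus TN difference of the 41 probes. In TN pigs it lay at 13.83, 14.06 and 14.38 (lowest, median, highest), and in HS pigs at 13.80, 14.20 and 14.57. The lowest and the highest array of all 33 were both HS, so the groups overlapped in spite of the shifted median. The difference was 0.16 (0.04 to 0.28), or 1.12-fold, with an adjusted p of 0.38 by limma, and it did not pass. It was 0.17 in LW, 0.14 in CR and 0.17 in F1, and 0.09 in LW without LW HS 4 and 0.09 in F1 without F1 HS 1. Each slide is a glass that carries several arrays. Within the 5 slides the HS mean minus the TN mean, with no breed term, was 0.32, 0.23, -0.05, 0.14 and 0.20. Slide 1 held 1 TN array, of LW, and 2 HS arrays, of CR and F1, so breed and temperature cannot be told apart there. The difference over all breeds stayed between 0.14 and 0.20 under every other setting and every left-out array, with adjusted p between 0.24 and 0.56.

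**Figure D1:**
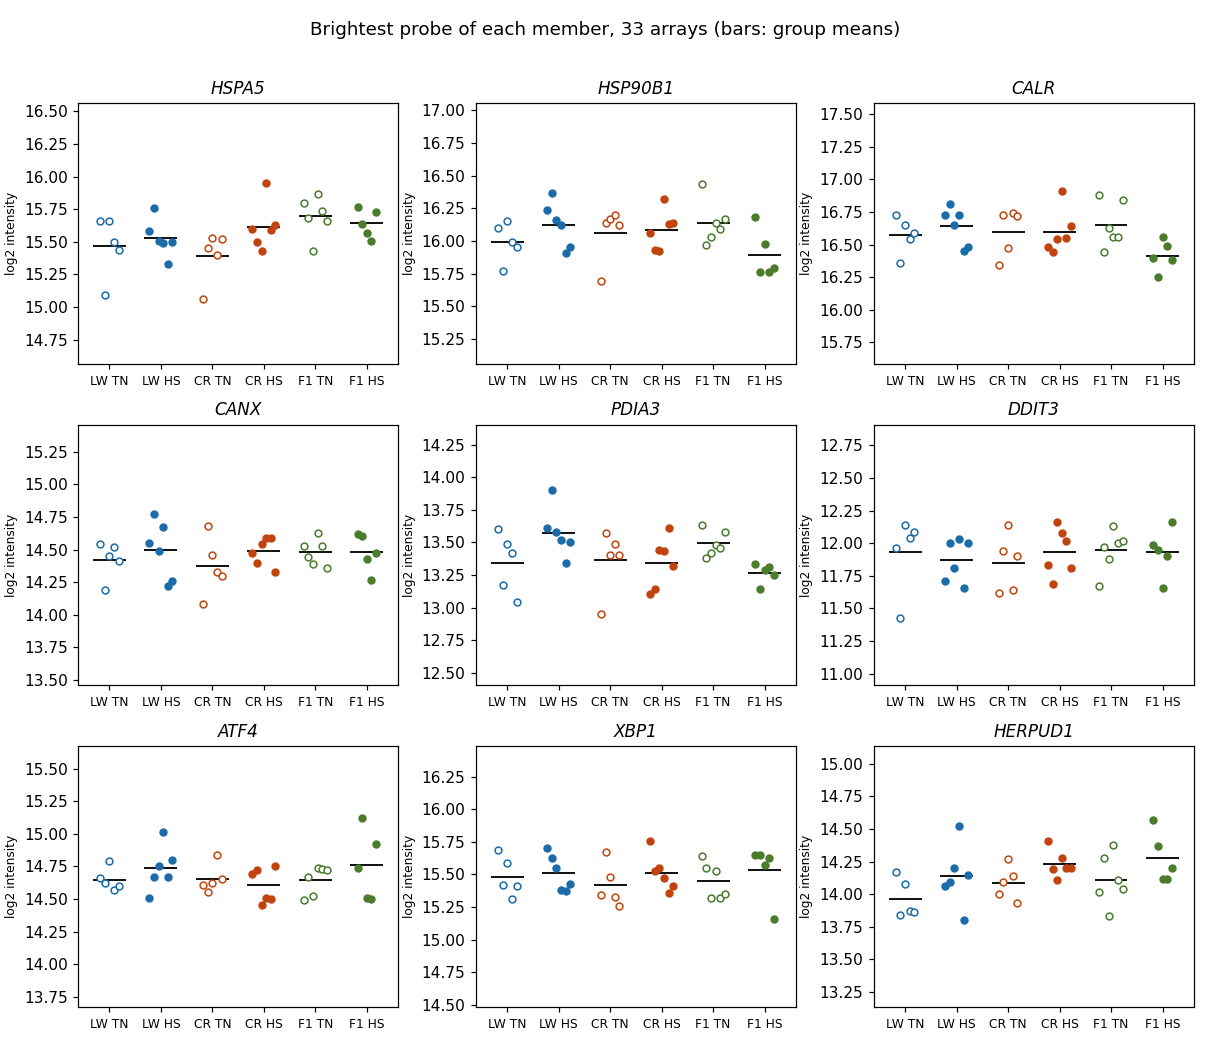
Log2 intensity of the brightest probe of each of the 9 measured genes on the 33 arrays, by breed and temperature (open circles TN, filled circles HS, bars group means, each panel with its own y axis of the same span). The 6 groups overlap in nearly every panel. In the PDIA3 panel the 5 F1 HS arrays lie below the 6 F1 TN arrays, a pattern not counted over all probes.

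Within breeds no HS minus TN difference of the 41 probes passed, and the counts of higher and lower probes moved with single arrays. In LW 30 of the 41 probes were higher in HS, but only 15 were without LW TN 2, where the median went from 0.05 to -0.04. In CR 35 were higher with a median of 0.11, and 29 with a median of 0.05 without CR TN 1. In F1 11 were higher with a median of -0.05, and 9 to 17 when 1 F1 array was left out. Over all 45667 probes, 23796, 23720 and 24166 were higher in HS in LW, CR and F1. No probe of the whole table was called within LW (0%), within CR (0%), within F1 (0%) or for the breed by temperature interaction (0%), where 3104, 2671, 2593 and 1941 probes had an unadjusted p under 0.05. Of the 41 probes, 2, 4, 4 and 2 had an unadjusted p under 0.05 in these 4 tests.

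The largest negative F1 differences among the brightest probes were those of HSP90B1, CALR and PDIA3. PDIA3 was at 13.33, 13.14, 13.29, 13.31 and 13.25 in the 5 F1 HS pigs, whereas F1 TN pigs ran from 13.38 to 13.63. How many of all probes separate these groups in this way was not counted. The difference was -0.23 in F1 (adjusted p = 0.86 by limma). In LW the same probe was higher in HS by 0.23 (adjusted p = 0.72), and the interaction had an adjusted p of 0.93. The other PDIA3 probe, A_72_P127691, gave 0.00 in F1 and 0.10 in LW.

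CALR differed by -0.24 in F1 (adjusted p = 0.86 by limma), with F1 HS pigs at 16.40, 16.25, 16.56, 16.49 and 16.38 and F1 TN pigs from 16.44 to 16.88. HSP90B1 differed by -0.25 in F1 (adjusted p = 0.86), where 4 of 5 F1 HS pigs were at 15.98 or below and F1 TN pigs ran from 15.97 to 16.44. All 10 HSP90B1 probes had lower means in F1 HS pigs, with differences of -0.26 to -0.02 (8 of them without F1 HS 4), as had the 3 CALR probes. HSPA5 differed by -0.05 in F1 and by 0.22 in CR (adjusted p = 0.83), and in CR the lowest TN array, at 15.06, stood apart from the other 4, which began at 15.40. Without that array, CR TN 1, the CR difference was 0.14.

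**Figure D2:**
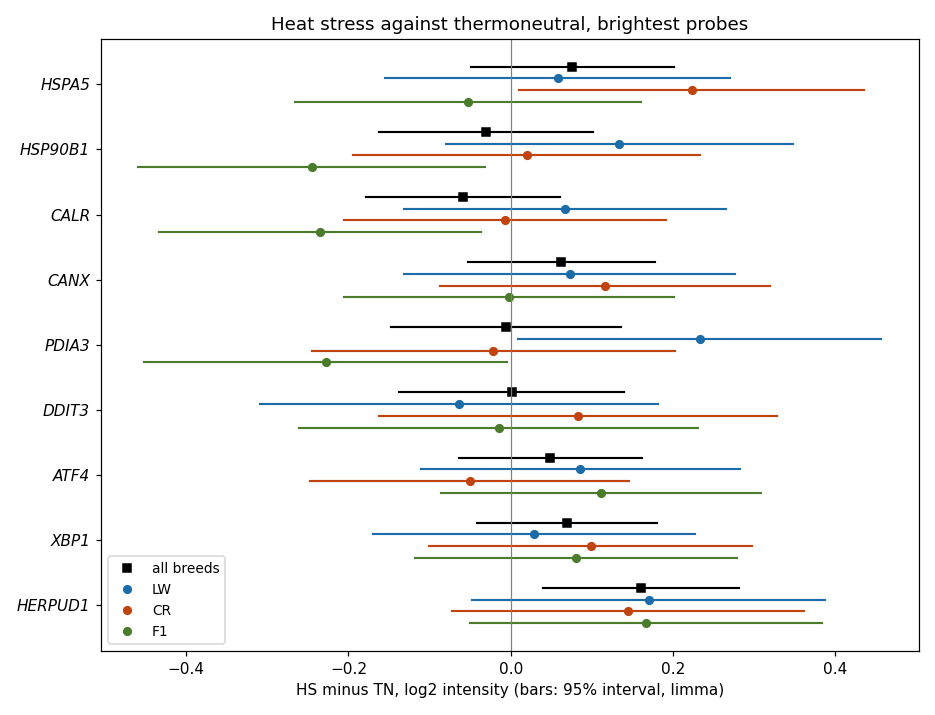
HS minus TN difference in log2 intensity (x axis) of the brightest probe of each gene, over all breeds (black squares) and within LW, CR and F1 (coloured circles), with 95% intervals from limma. HERPUD1 is at 0.14 to 0.17 in each breed, and CALR, HSP90B1 and PDIA3 are between -0.25 and -0.23 in F1 and between 0.07 and 0.23 in LW, with none past adjustment.

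Between breeds the gene set also held no call, against a background in which breed differences were common. LW and CR differed in 3039 probes of the table (6.65%) and 726 named genes (7.13%), with 8537 probes at an unadjusted p under 0.05. None of the 41 probes was among them, 24 were higher and 17 lower in LW, and 1 had an unadjusted p under 0.05. That was the CALR probe O12127, which differed by -0.37 (adjusted p = 0.24) while the other 2 CALR probes differed by 0.01 and 0.02. O12127 was also the most variable of the 41 probes within groups, with an SD of 0.44, whereas the median SD of the 41 was 0.19 and that of all probes was 0.20.

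In the F1 cross, HSPA5 had the largest positive and the XBP1 probes of the start side the largest negative differences of the 41 probes from the parental mean, and none passed. The table as a whole held 674 calls for F1 against LW (1.48%), 3135 for F1 against CR (6.86%) and 1313 for F1 against the mean of the parental breeds (2.88%), or 165 (1.62%), 814 (7.99%) and 306 (3.00%) when named genes were counted. Before adjustment, 6327, 9976 and 7714 probes had p under 0.05. For the 41 probes the numbers of calls were 0, 0 and 0, and 8, 9 and 9 had an unadjusted p under 0.05. The 3 F1 comparisons share the F1 arrays.

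HSPA5 lay at 15.43, 15.68 and 15.87 (lowest, median, highest) in F1, at 15.09, 15.50 and 15.77 in LW and at 15.06, 15.52 and 15.95 in CR. The F1 range was the narrowest, began above the lowest values of both parental breeds, and its highest value was above that of LW and below that of CR. Against the parental mean the difference was 0.17 (0.04 to 0.30, adjusted p = 0.16 by limma), and the 3 probes gave 0.17 to 0.18. Within slides the F1 mean minus the mean of the parental breeds, with no temperature term, was 0.13, 0.36, 0.04, 0.09 and 0.18. Slide 1 held 1 array of each breed.

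For XBP1 the F1 differences were negative at the probes nearer the start of its transcript and near 0 at those nearer the end. The probe at base 791 was at 11.04, 9.90, 11.48, 11.24 and 10.21 in F1 HS pigs and from 10.79 to 11.34 in F1 TN pigs, whereas the 22 LW and CR pigs ran from 10.75 over a median of 11.43 to 11.65. Arrays F1 HS 2 and F1 HS 5 were therefore lower than every other array, and the other 9 F1 arrays lay inside the parental range. The difference from the parental mean was -0.40 (adjusted p = 0.069) at base 791, -0.35 (adjusted p = 0.066) at base 842 and -0.37 (adjusted p = 0.084) for O9563. It was -0.21 at base 1017, -0.20 at base 1041, 0.01 at base 1584 and -0.02 at base 1692.

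The XBP1 values of the start side were alike against either parent. F1 minus LW was -0.39, -0.34 and -0.33 for these 3 probes (adjusted p = 0.17, 0.17 and 0.24), and F1 minus CR was -0.41, -0.35 and -0.40 (adjusted p = 0.077, 0.074 and 0.072). LW and CR differed there by -0.02, -0.01 and -0.07. Within slides the F1 difference from the parental mean at base 791, with no temperature term, was -0.55, -0.25, -0.37, -0.18 and -0.63.

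How far this rested on single animals was measured by leaving arrays out. Without F1 HS 2 and F1 HS 5 together, an omission chosen after their values were seen, the 3 differences from the parental mean were -0.18, -0.16 and -0.16, with adjusted p of 0.45, 0.44 and 0.52. With array weights, in which limma counts more variable arrays for less, they passed at -0.39, -0.33 and -0.36 (adjusted p = 0.016, 0.020 and 0.025). Leaving out F1 HS 3, the F1 array with the highest value, brought all 3 past the threshold, with adjusted p between 0.019 and 0.026. Other single omissions that moved the count of calls were LW TN 2 and F1 HS 4 with 2 each, and F1 TN 1 and LW HS 4 with 1 each.

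The XBP1P1-named probe, which reads nearly the same bases as the probe at base 791 and followed it with r = 0.98, passed. It is no member by the rule and was looked at after its neighbour's values were seen. F1 pigs lay at 10.05, 11.08 and 11.60 (lowest, median, highest) and LW and CR pigs at 10.87, 11.48 and 11.70. The differences were -0.43 from the parental mean (adjusted p = 0.043), -0.47 from CR (adjusted p = 0.031) and -0.38 from LW (adjusted p = 0.17). The call against the parental mean was lost when any of 21 of the 33 arrays was left out, and without F1 HS 2 and F1 HS 5 the difference was -0.22 (adjusted p = 0.32). It was also lost with processed intensity (-0.41, adjusted p = 0.090), with slide as a fixed block (-0.41, adjusted p = 0.0526) and with LW HS 3 taken as Creole (-0.42, adjusted p = 0.0502).

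As a value for each array as a whole, the start minus end difference of 1617 other transcripts with probes at least 500 bases apart was centred on its mean over the arrays, and the median over the transcripts was taken. This index lay between -0.08 and 0.08 on the 33 arrays, with 0.04 on F1 HS 2 and 0.02 on F1 HS 5, ranks 26 and 23 of 33 from the lowest. A median over many transcripts varies less than 1 transcript does, so the index describes the arrays and is no measure of how unusual the XBP1 values are, and its part in them was not tested.

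**Figure D3:**
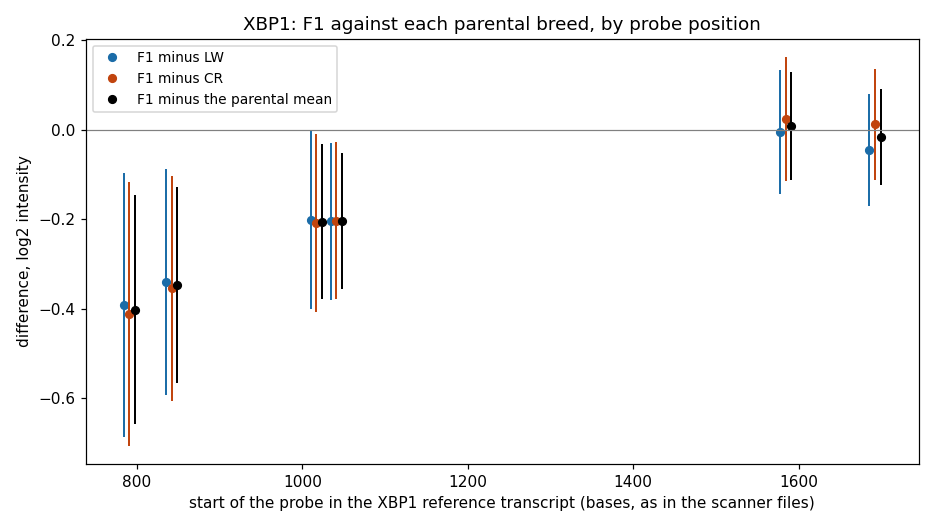
Difference in log2 intensity between F1 pigs and LW (blue), CR (red) or the parental mean (black), with 95% limma intervals, against the start of each XBP1 probe in its reference transcript in bases (points of a probe are set slightly apart). The differences go from about -0.40 at base 791 to 0.01 at base 1584.

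**Figure D4:**
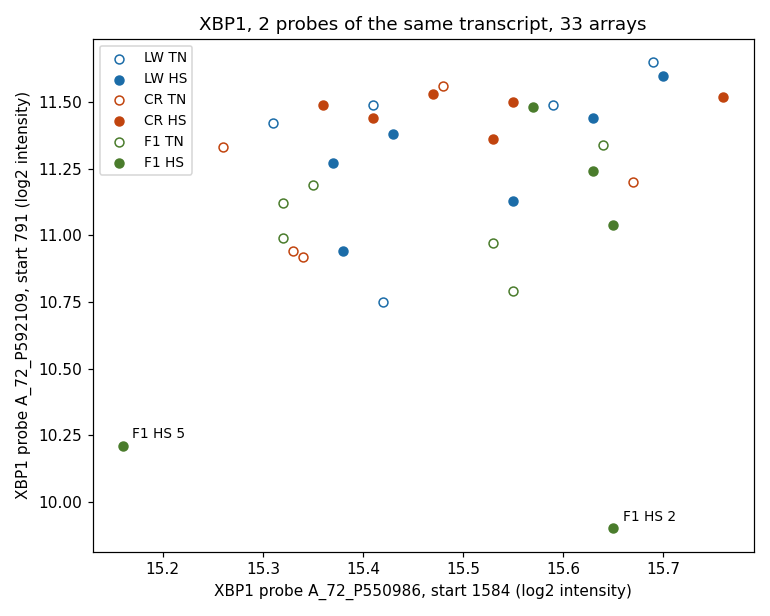
Log2 intensity of the XBP1 probe at base 791 (y axis) against the one at base 1584 (x axis) on the 33 arrays, by breed and temperature. F1 HS 2 and F1 HS 5 lie lowest on the y axis, at 9.90 and 10.21, and on the x axis F1 HS 2 is among the high arrays at 15.65 while F1 HS 5 is the lowest at 15.16.

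Animals of the same group differed together in most ER chaperones. After group means were removed, HSPA5 correlated over the 33 arrays with HSP90B1 (r = 0.78, Spearman's rho = 0.76), CANX (r = 0.67, rho = 0.64), PDIA3 (r = 0.60, rho = 0.57), CALR (r = 0.58, rho = 0.46), DDIT3 (r = 0.57, rho = 0.44) and HERPUD1 (r = 0.49, rho = 0.50). By permutation within groups, two-sided, with 100000 resamples, the p-values of r were 1e-05 (the smallest they can give), 3e-05, 0.00267, 0.00195, 0.00412 and 0.00439, and after adjustment over the 8 relations 8e-05, 0.00012, 0.00534, 0.0052, 0.00585 and 0.00585. The p-values of rho were 1e-05, 0.00012, 0.00274, 0.0125, 0.0191 and 0.00603, and adjusted 8e-05, 0.00048, 0.00731, 0.02, 0.0255 and 0.0121. ATF4 (r = 0.13, rho = 0.15, permutation p = 0.413 and 0.404, adjusted p = 0.413 and 0.404) and XBP1 (r = 0.26, rho = 0.34, permutation p = 0.165 and 0.0747, adjusted p = 0.188 and 0.0854) did not pass. With slide means removed XBP1 did pass (r = 0.51, rho = 0.53, permutation, adjusted p = 0.00504 and 0.00594), as it did with processed intensity (r = 0.69, permutation, adjusted p = 0.000128), and ATF4 passed with processed intensity (r = 0.41, permutation, adjusted p = 0.0221). For scale, the median r with HSPA5 over all probes was 0.02, and 3.39% of probes were above 0.5.

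The correlations of the chaperones rested in part on 2 animals and differed between slides. CR TN 1 and LW TN 2, both on slide 2, were farthest from the HSPA5 median, and without them r was 0.70 for HSP90B1, 0.54 for CANX, 0.46 for PDIA3, 0.49 for HERPUD1, 0.42 for CALR and 0.33 for DDIT3, of which the last 2 no longer passed. By rho PDIA3 did not pass without these 2 arrays either (rho = 0.38, permutation, adjusted p = 0.0873), and HERPUD1 did not pass by rho with slide means removed (rho = 0.32, permutation, adjusted p = 0.106). Within slides 2, 3 and 4, of 7, 8 and 7 arrays, r with HSP90B1 was 0.84, 0.92 and 0.83, with CANX 0.93, 0.58 and 0.68, with PDIA3 0.80, 0.52 and 0.64, and with CALR 0.77, 0.34 and 0.62. Within slide 5, of 8 arrays, the same 4 values were 0.10, 0.16, 0.06 and 0.13, so the relation did not hold there. HSPA5 spanned only -0.04 to 0.13 around its group means on slide 5, against -0.38 to 0.10 on slide 2, -0.19 to 0.23 on slide 3 and -0.27 to 0.33 on slide 4. Slide 1 had 3 arrays, too few for a value.

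**Figure D5:**
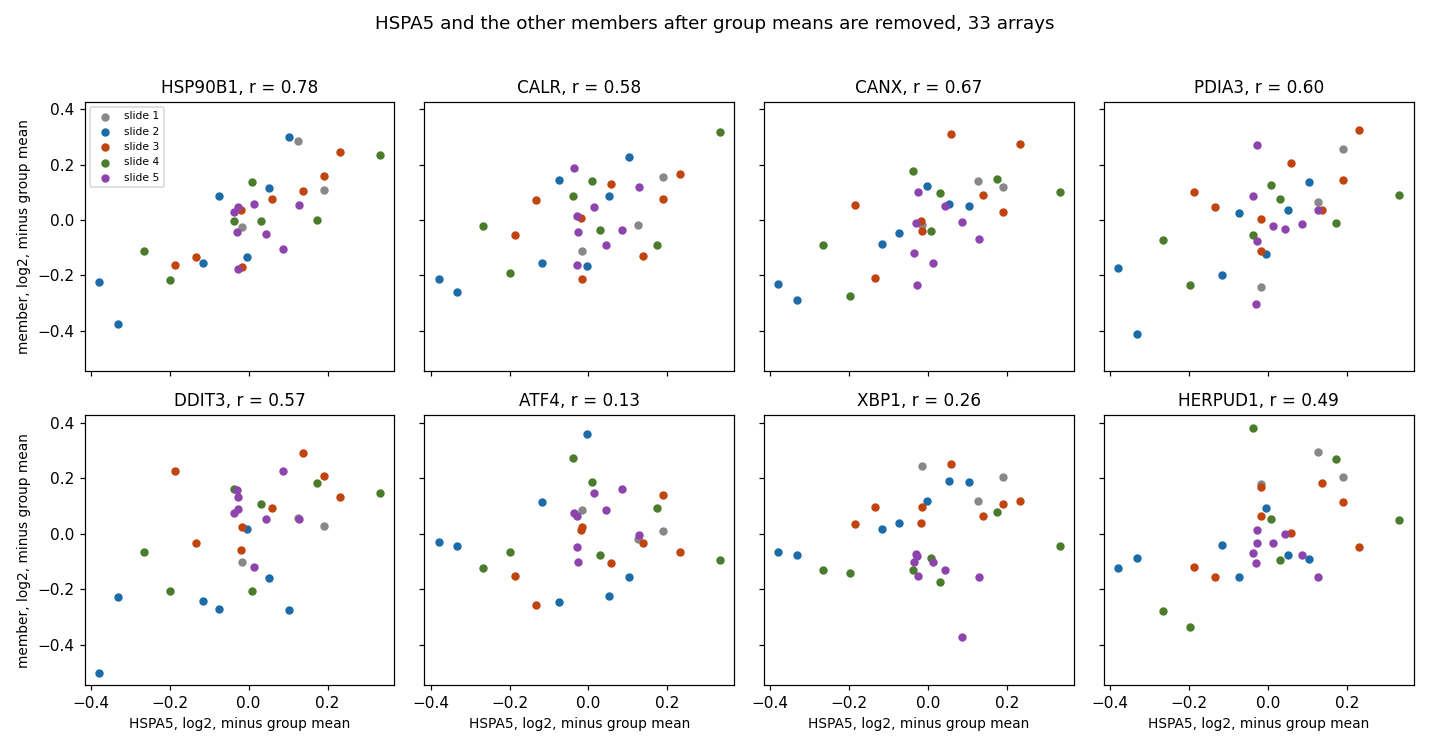
Log2 intensity of 8 genes (y axes) against HSPA5 (x axes), each minus its group mean, on the 33 arrays, coloured by slide. HSP90B1 follows HSPA5 most closely (r = 0.78), ATF4 does not (r = 0.13), and the points of slide 5 lie close to the centre of the x axis.

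Outside the set, the genes whose values went most closely with HSPA5 over the 33 arrays were HYOU1 (r = 0.90), an ER chaperone of the HSP110 family, ERP29 (r = 0.84), an ER lumenal protein, STT3A (r = 0.84), a subunit of oligosaccharyltransferase, and DNAJC3 (r = 0.83), an ER co-chaperone. CRELD1 (r = 0.82), SDF2L1 (r = 0.81), CNPY2 (r = 0.79) and SARAF (r = 0.79) followed. For DDIT3 they were CDR2L (r = 0.83), ACTA1 (r = 0.82), PREB (r = 0.82) and UPRT (r = 0.81), beside 5.17% of all probes with r above 0.5. These are descriptions, since arrays share slides and normalization. The XBP1 probe at base 791 and the ATF4 probe O139, a pair picked from all pairs of the 41 probes, went in opposite directions (r = -0.69). F1 HS 2 and F1 HS 5, the lowest arrays for this XBP1 probe, had the highest ATF4 values of the F1 HS arrays, at 15.12 and 14.92. How far this r rests on these arrays was not tested.

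Probes of 1 gene did not always speak together. The 3 HSPA5 probes correlated at 0.84 to 0.93 and the 10 HSP90B1 probes at 0.45 to 0.96, after group means were removed. DDIT3 probe A_72_P157561, at base 801, correlated at 0.35 and 0.39 with the pair of identical probes at base 125. Among the XBP1 probes, those at bases 791 to 1041 correlated at 0.92 or more with each other and at 0.33 to 0.55 with the probe at base 1584.

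No heat difference passed in the wider unfolded protein response machinery either. None of 10 measured sensors and transcription factors passed for HS against TN, nor did any of 17 ATF4 and DDIT3 target genes, 27 other ER chaperones and folding enzymes, 19 genes of ER-associated degradation or 27 genes of the translocon and of signal peptide processing. Their medians were 0.04, 0.02, 0.03, 0.03 and 0.03 on the log2 scale, against 0.01 over all probes. The smallest p of each list belonged to CREB3 (0.14, adjusted p = 0.42), DDIT4 (-0.12, adjusted p = 0.39), SERPINH1 (-0.24, adjusted p = 0.39), DERL3 (0.07, adjusted p = 0.72) and SRP19 (0.11, adjusted p = 0.65).

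Breed calls did occur in these lists, beside 7.13% of all named genes for LW against CR, 1.62% for F1 against LW, 7.99% for F1 against CR and 3.00% for F1 against the parental mean. CREB3, a membrane-bound transcription factor, ran from 12.92 to 13.47 in 11 LW pigs and from 12.72 to 12.90 in 11 CR pigs. It was higher in LW by 0.46 (adjusted p = 1.69e-05 by limma). It was also higher in F1 than in CR by 0.28 (adjusted p = 0.0092). The only other call among the 10 sensors and transcription factors was ATF6, a stress sensor, with LW minus CR at -0.33 (adjusted p = 0.047). UBE2J1, a ubiquitin-conjugating enzyme of ER-associated degradation, was lowest in F1, at 10.61, 11.07 and 11.40 (lowest, median, highest), against 11.11, 11.36 and 11.58 in LW and CR together. Its difference from the parental mean was -0.30 (adjusted p = 0.0077), from LW -0.32 (adjusted p = 0.021) and from CR -0.29 (adjusted p = 0.016). ERO1A, the oxidase that recharges disulphide isomerases, went the other way, at 9.33, 9.52 and 9.88 in F1 against 9.06, 9.32 and 9.56 in LW and CR, a difference of 0.25 from the parental mean (adjusted p = 0.012) and of 0.29 from CR (adjusted p = 0.0060).

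The calls of CREB3, UBE2J1 and ERO1A given above held whichever 1 of the 33 arrays was left out. Without F1 HS 2 and F1 HS 5 together, UBE2J1 lost its calls against the parental mean (-0.22, adjusted p = 0.073), LW (-0.24, adjusted p = 0.097) and CR (-0.20, adjusted p = 0.082), and ERO1A lost its call against the parental mean (0.19, adjusted p = 0.11). The remaining calls of these lists for LW against CR were VLDLR (0.50, adjusted p = 0.011), a target of ATF4, SDF2L1 (-0.48, adjusted p = 0.045) and DDOST (-0.16, adjusted p = 0.049), an oligosaccharyltransferase subunit. For F1 against CR they were VLDLR (0.41, adjusted p = 0.042), CRELD2 (0.46, adjusted p = 0.038), DERL1 (-0.17, adjusted p = 0.037), FAF2 (0.16, adjusted p = 0.049) and SRP54 (-0.31, adjusted p = 0.045), and for F1 against the parental mean VCP (-0.18, adjusted p = 0.040), the segregase that extracts proteins from the ER. Apart from VLDLR in LW against CR, each of these, and ATF6, lost its call when 1 of at least 9 different arrays was left out. VLDLR in LW against CR lost its call with LW HS 3 taken as Creole (0.40, adjusted p = 0.097).

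The tissue carried anterior pituitary hormone mRNAs, with GH1 at 19.02, POMC at 19.01 and PRL at 18.87, and none of 7 hormone genes passed in any comparison between temperatures or breeds. TSHB, the thyrotropin subunit, had the largest of their breed differences, at -1.47 for LW against CR (adjusted p = 0.15) and 1.37 for F1 against LW (adjusted p = 0.28). OXT, whose hormone is released from the posterior lobe, was at 15.66, and none of 5 posterior and intermediate lobe genes passed. The study's methods name the anterior lobe as the part sampled. The summed level of 6 red cell genes was 11.87 to 13.10 in TN and 11.71 to 12.37 in HS pigs, all 6 had lower means in HS, and HBB fell by 1.15 (adjusted p = 0.030), a call that 19 of the 33 fits with 1 array left out kept. It was lost with array weights (-0.96, adjusted p = 0.14), with no breed term (-1.10, adjusted p = 0.076) and without F1 HS 2 and F1 HS 5 (-1.05, adjusted p = 0.11). The summed level of 8 leukocyte genes reached 12.68 in TN and 12.60 in HS, and all 8 had lower means in HS, with none passing. In F1 CSF1R, a macrophage receptor, was lower than the parental mean (-0.41, adjusted p = 0.014), and the other 7 leukocyte genes did not pass, with 2 above it (CD163 at 0.15 and CD68 at 0.01) and 5 below it. Of 10 pituitary regulators 5 differed between LW and CR, where 7.13% of all named genes did, among them TRHR (-0.48, adjusted p = 0.0035), GNRHR (0.59, adjusted p = 0.011) and GHRHR (-0.40, adjusted p = 0.012), and PITX1 was higher in F1 than the parental mean by 0.26 (adjusted p = 0.019). Of 5 plasma and B cell genes JCHAIN was lower in LW than in CR (-0.49, adjusted p = 0.00041), and the other 4 did not pass, with POU2AF1 at 0.61 (adjusted p = 0.082) and CD79A at 0.53 (adjusted p = 0.21). With LW HS 3 taken as Creole, GNRHR no longer passed for LW against CR (0.50, adjusted p = 0.073). Without F1 HS 2 and F1 HS 5 neither PITX1 (0.25, adjusted p = 0.097) nor CSF1R (-0.40, adjusted p = 0.062) passed against the parental mean, nor did they with processed intensity (adjusted p = 0.052 and 0.055). The part of these markers in the values above was not tested.

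In a fit with the 6 groups, slide passed for 6006 probes of the table (13.2%) and for 3 of the 41, XBP1 A_72_P550986 (adjusted p = 0.00055), XBP1 CUST_34_PI427286967 (adjusted p = 0.0047) and DDIT3 A_72_P157561 (adjusted p = 0.013). Raw spots had array medians between 131 and 165, the surrounding background had medians between 20 and 47.5, and 0 spots were saturated.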

How the data were processed

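RNA from the pituitary of 33 pigs was hybridised to Agilent porcine 8×60K arrays with 1 colour. The scanner output that the authors deposited gives, per the file headers, an intensity for each spot from Feature Extraction. The authors also deposited log2 values of 45667 probes, made by quality control and quantile normalization, and these were the main values. Groups came from the sample titles, and no column was left unmatched. limma (version 3.58.1, R 4.3.3; lmFit, eBayes) was fitted with breed and temperature, and with the 6 groups for comparisons within breeds and the interaction, with Benjamini-Hochberg adjustment over all probes at a threshold of 0.05. The study's own model held pen, slaughter day and parents, which the labels do not give. Each gene was represented by its brightest probe. Of each list, the genes that passed were named, up to 3 by p, or the smallest p for heat. The members and lists were chosen with earlier results of these data known. Relations between genes were tested by permutation within groups. The fits were tested on simulated data. Alternatives were quantile-normalized values rebuilt from the scanner files, processed intensity minus each array's 75th percentile, normexp background correction (offset 50), bright probes only, slide as fixed or random block, array weights, no breed term, LW HS 3 as Creole, and each array left out. No paired analysis was possible because replicate numbers only follow the order of deposition. Promoter and protein sequences were not used here. The number of arrays limits the precision.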

Additional observations from a re-analysis of the deposited data

Results flagged for a closer look

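In 54 groups of 5 or 6 arrays (9 brightest probes in 6 groups), 5 values lay far from the rest of their group by Dixon's criterion, and chance flags about 1 group in 20. Array CR TN 1 accounted for 3 of them, all chaperones and all low, with HSPA5 at 15.06 (next array 15.40), HSP90B1 at 15.69 (next 16.12) and PDIA3 at 12.95 (next 13.40). DDIT3 was low on LW TN 2, at 11.43 (next 11.96). XBP1 was low on F1 HS 5, at 15.16 (next 15.57), at the brightest probe, which lies on the end side of the transcript.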

How the results depend on the processing

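No member probe passed for HS against TN, LW against CR, within a breed or for the interaction under any alternative or left-out array. For F1, array weights gave 2 calls against LW, 3 against CR and 3 against the parental mean, and the range over left-out arrays was 0 to 3 against CR and 0 to 3 against the parental mean. Among the brightest probes, direction turned for small HS minus TN differences. PDIA3 became 0.047 with processed intensity, 0.010 with slide as a fixed block and 0.00065 as a random block, with -0.039 to 0.014 over left-out arrays. DDIT3 became -0.073 with array weights and -0.0020 without the breed term, with -0.034 to 0.023 over left-out arrays. Without F1 HS 2 and F1 HS 5, HSP90B1 became 0.012, PDIA3 0.029, DDIT3 -0.019 and ATF4 -0.0041. The F1 difference of XBP1 at base 1584 was -0.0090 to 0.050 over left-out arrays. The cause was not tested. Over all probes, HS against TN gave 10 calls as reported, 24 with processed intensity, 92 and 54 with slide as a fixed or random block 6 with array weights and 4 without the breed term. With LW HS 3 as Creole, LW against CR gave 1827 (3039 as reported) and F1 against LW 449. F1 against LW, 674 as reported, gave 1019 with slide as a random block, 1856 with array weights and 239 without F1 HS 2 and F1 HS 5. Without these 2 arrays F1 against CR gave 1802 (3135 as reported) and F1 against the parental mean 238 (1313 as reported), which array weights put at 2327. With 1 array left out the counts were 6 to 37 for HS against TN, 367 (without F1 HS 1) to 1158 (without F1 HS 3) for F1 against LW, 2023 (without F1 HS 2) to 4211 for F1 against CR and 539 (without F1 HS 2) to 2258 (without F1 HS 3) for F1 against the parental mean.

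Correlations with HSPA5 passed also for XBP1 and ATF4 with processed intensity (0.69 and 0.41) and for XBP1 with slide means removed (0.51), and CALR (0.42) and DDIT3 (0.33) did not pass without the 2 farthest arrays. Single slides of 7 or 8 arrays lost most calls. On slide 2 r was 0.84 for HSP90B1, 0.77 for CALR, 0.80 for PDIA3, 0.58 for DDIT3, 0.31 for HERPUD1, -0.093 for ATF4 and 0.97, passing, for XBP1. On slide 3 it was 0.34 for CALR, 0.58 for CANX, 0.52 for PDIA3, 0.37 for DDIT3 and 0.50 for HERPUD1, and on slide 4 it was 0.83 for HSP90B1, 0.62 for CALR, 0.68 for CANX, 0.64 for PDIA3, 0.64 for DDIT3 and 0.57 for HERPUD1. On slide 5 it was 0.097 for HSP90B1, 0.13 for CALR, 0.16 for CANX, 0.057 for PDIA3, 0.027 for DDIT3, -0.58 for XBP1 and -0.50 for HERPUD1, and fewer arrays entered each of these.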
